A study of Mus musculus with 48 samples.

Results

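Livers of ATF7+/+ offspring were compared with livers of wild-type offspring, both sired by males fed a low protein diet. The comparison took all arrays that the labels give as ATF7+/+ or as wild-type with low-protein sires, which is 16 samples of 48 in the series, 8 in each group. The full series crosses 3 genotype labels (wild-type, ATF7+/- and ATF7+/+) with 2 sire diets, at 8 arrays a group. Sires ate either a control diet or a diet low in protein between 3 and 12 weeks of age. RNA came from the median lobe of the liver of F1 offspring 3 weeks old, males or females, and was hybridised as labelled cDNA to Affymetrix whole-transcript arrays. The control-diet groups with the same 2 labels, another 16 arrays, served to test whether the difference depended on the sire's diet. The labels describe neither a targeted allele in the ATF7+/+ animals nor how they differ from wild-type, and they do not name litters, sires or the sex of each animal. Each group's 8 arrays are described as separate biological experiments. Where several came from 1 litter, a p-value reflects no more than the spread among these samples.

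ATF7 is a DNA-binding protein of the ATF2 family that is phosphorylated under stress; it recruits histone H3 lysine 9 methyltransferases and helps to keep its target genes silent. In the young mouse liver the weeks around weaning bring an end to fetal growth programmes, a fall in hepatocyte division and the start of adult metabolism. Cholesterol synthesis in the liver, run by the SREBP2 factor, is a pathway known to respond in offspring to a low protein diet of the father.

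No gene passed the test in livers from low-protein sires. Of 13542 genes tested with limma, 0 (0%) differed between ATF7+/+ and wild-type offspring at a Benjamini-Hochberg adjusted p of 0.05, and the lowest adjusted p was 0.193. At an unadjusted p under 0.05 there were 1130 genes (8.34%), of which 411 (3.04% of those tested) were higher and 719 (5.31%) lower in ATF7+/+ offspring. The median absolute difference was 0.08 log2 units, below the median standard error of 0.10. For 12572 genes (92.8%) the whole 95% confidence interval lay within a 1.5-fold difference either way, so for these a larger mean difference was outside the interval. Point estimates passed 1.5-fold for 75 genes and 2-fold for 17. Arrays have no depth per sample, and their number limits the precision. Array medians lay between 5.89 and 6.12 on the log2 scale over the 48 arrays.

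The arrays form 2 sets that no label names. Over 5591 probe sets to which the annotation assigns no gene, the first principal component has 1 widest gap, and the arrays on its sides are called set A (18 arrays) and set B (30 arrays). Every group has 3 arrays in A and 5 in B. In a fit with a block for array set 10 genes passed (0.0738%), 2 higher and 8 lower. With only the 16 arrays compared in the fit, the count was also 10.

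Atf7 itself was measured on 2 probe sets. On the probe set with the higher mean, wild-type offspring had log2 levels of 8.68 at the lowest, 8.80 at the median and 8.94 at the highest, and ATF7+/+ offspring 8.87, 9.0 and 9.17. The ranges overlapped slightly, and the difference was 0.20 ± 0.08 (SE, n = 8 each, adjusted p = 0.472). The other probe set gave 0.30 ± 0.13 (adjusted p = 0.509), and its set A value was 0.58 (adjusted p = 0.0031) against 0.13 in set B. On that probe set the ATF7+/- offspring of low-protein sires had a mean of 7.72, below the mean of 8.31 in wild-type and 8.61 in ATF7+/+. Where these probes lie relative to any targeted exon is not given in the sources used here. Next to Atf7 on its chromosome, up to 20 genes a side, 34 were measured. In low-protein offspring 0 of them reached an unadjusted p under 0.05, against 8.34% of all genes, and differences lay between -0.18 and 0.22. In set A 4 of the 34 passed, while of all genes 5% passed as higher and 9.82% as lower.

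The genes with the smallest p included a regulator of hepatocyte identity, secreted liver proteins and genes of growth control. The 20 genes with the smallest p had adjusted p-values from 0.193 to 0.217, and 4 were higher and 16 lower in ATF7+/+ offspring. Their absolute log2 differences ran from 0.25 to 1.32. In control-diet sires none of the 20 had an absolute difference over 0.37, and 13 had the same sign.

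Onecut1 encodes HNF6, a transcription factor of hepatocytes and bile duct cells. Its log2 level was 7.84, 8.91 and 9.46 (lowest, median, highest) in wild-type offspring and 9.26, 9.84 and 10.14 in ATF7+/+ offspring. All ATF7+/+ livers but replicate 7 lay above the highest wild-type liver. The difference was 1.0 ± 0.23 (adjusted p = 0.193), and it came to 0.80 in set A against 1.12 in set B. Onecut1 passed when only the 16 arrays compared were fitted (adjusted p = 0.0410).

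Orm1 encodes orosomucoid, an acute phase protein that the liver secretes. Levels were 9.18, 10.08 and 10.99 in wild-type and 11.08, 11.42 and 12.18 in ATF7+/+ offspring, and the 2 groups did not overlap. The difference was 1.32 ± 0.33 (2.49-fold, adjusted p = 0.200), or 1.88 in set A against 0.98 in set B. Its close paralogue Orm2 was 1.17 ± 0.46 higher (adjusted p = 0.456). Mup21, a major urinary protein, had levels of 4.87, 5.66 and 6.61 in wild-type and 6.01, 6.60 and 6.92 in ATF7+/+ offspring, a difference of 0.94 ± 0.23 (adjusted p = 0.193). Probe sets of the Mup, Orm, Cyp4a12 and Hamp families can share sequence between near-identical genes, so which copy gave a signal is uncertain. Inhbe, the activin E subunit made in the liver, had levels of 7.60, 8.38 and 8.75 in wild-type and 8.77, 9.17 and 9.86 in ATF7+/+ offspring. The groups did not overlap, and the difference was 0.91 ± 0.25 (adjusted p = 0.264).

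**Figure D1:**
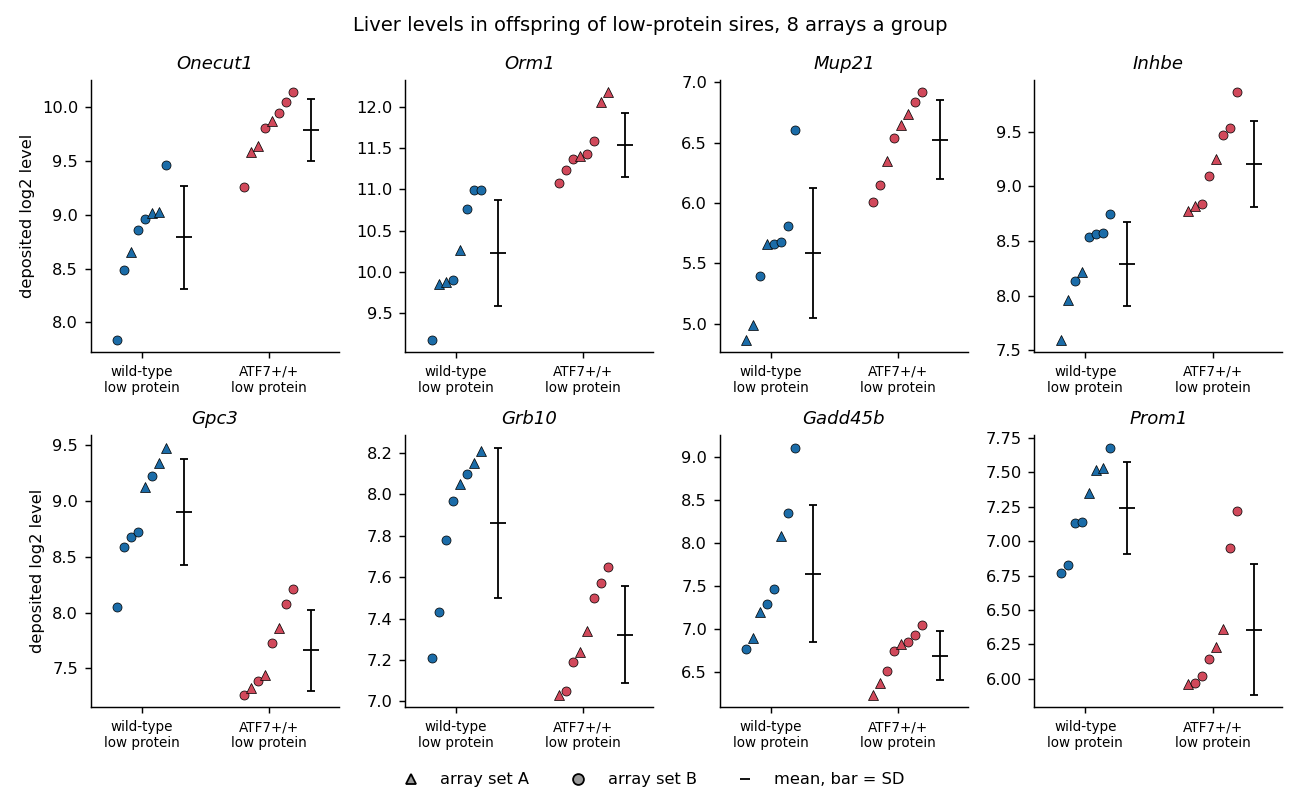
Log2 array level of 8 genes in each wild-type and ATF7+/+ liver from low-protein sires; triangles are arrays of set A, circles arrays of set B, and the bar is the mean with its SD (n = 8). Orm1 and Inhbe show no overlap between groups, and in the other panels the groups overlap in part.

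Genes known from fetal growth and from growth-factor signalling were among those with lower values. Gpc3 is a glypican, a cell-surface proteoglycan abundant in fetal liver. Its levels were 8.05, 8.93 and 9.48 in wild-type and 7.26, 7.59 and 8.21 in ATF7+/+ offspring, so the ATF7+/+ livers lay below all wild-type livers but replicate 3. The difference was -1.24 ± 0.31 (adjusted p = 0.216), or -1.78 in set A against -0.92 in set B. Gpc3 passed with the array-set block (adjusted p = 0.0441) and with only the compared arrays fitted (adjusted p = 0.0189). Prom1, the gene of the progenitor surface protein CD133, had levels of 6.77, 7.25 and 7.68 in wild-type and 5.96, 6.19 and 7.22 in ATF7+/+ offspring, a difference of -0.89 ± 0.21 (adjusted p = 0.193). Grb10, an imprinted adaptor that inhibits the insulin and IGF1 receptors, had 7.21, 8.01 and 8.21 against 7.03, 7.29 and 7.65, a difference of -0.54 ± 0.14 (adjusted p = 0.216). In Prom1 the ATF7+/+ replicates 7 and 8 lay within the wild-type range, and in Grb10 the wild-type replicates 3 and 5 lay within the ATF7+/+ range.

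Signalling and stress genes followed. Gadd45b, induced by stress and growth signals, spanned 6.77 to 9.11 with a median of 7.38 in wild-type and 6.23 to 7.05 with a median of 6.78 in ATF7+/+ offspring. Its difference was -0.96 ± 0.23 (adjusted p = 0.193; 0.0424 with the array-set block) and nearly the same in set A, -0.92, as in set B, -0.98. Spry1, an inhibitor of receptor tyrosine kinase signalling, had 7.51, 7.57 and 7.69 against 7.18, 7.27 and 7.53. The groups overlapped only between 7.51 and 7.53, and the difference was -0.29 ± 0.06 (adjusted p = 0.193; 0.0424 with the block). Gdf2 encodes BMP9, a liver-made ligand of endothelial receptors, and its levels were 7.86, 8.23 and 8.54 against 7.54, 7.87 and 8.07. The groups overlapped over a small range, with a difference of -0.38 ± 0.08 (adjusted p = 0.193). The Gdf2 difference itself differed between array sets, -0.72 in A and -0.18 in B (adjusted p of the set interaction 0.0157), and Gdf2 passed once wild-type replicate 3 was left out (adjusted p = 0.0315).

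Of the other genes among the 20, Mllt3, a chromatin reader of the super elongation complex, differed by -0.47 ± 0.11 and passed with the block (adjusted p = 0.0441). Irf2bp2, a transcriptional corepressor, differed by -0.50 ± 0.12 and Bcl2l11, which encodes the pro-apoptotic protein BIM, by -0.42 ± 0.11. Ccdc80, a secreted matrix protein, differed by -0.52 ± 0.13 and Clec14a, a surface lectin of endothelial cells, by -0.54 ± 0.14. Both had a set interaction that passed: Ccdc80 was -1.03 in set A against -0.21 in set B (adjusted p = 0.0309), and Clec14a -1.28 and -0.09 (adjusted p = 0.0002). Sema4c, Casp2, Kyat3, Ppp4r4 and Mroh2a had differences from -0.25 for Sema4c to -0.42 for Ppp4r4, and 6230400D17Rik was 0.28 higher.

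In 14 genes (0.103%) the 8 values of each group did not overlap. The 6 with higher ATF7+/+ values were Bcorl1, Inhbe, Kmt2d, Nupl2, Orm1 and Poc5, and the 8 with lower values were Arhgef19, Car2, Cerk, Dek, Flt1, Lyve1, Mcm6 and Swi5. Their adjusted p-values ran from 0.200 to 0.577. Inhbe, Flt1, Car2 and Kmt2d are described because of this pattern, after their values were seen. Car2, a carbonic anhydrase, was tightly grouped at 8.43, 8.61 and 8.78 in wild-type and 8.02, 8.14 and 8.26 in ATF7+/+ offspring, a difference of -0.48 ± 0.12 (adjusted p = 0.217; 0.0024 with only the compared arrays fitted). Kmt2d, a histone H3 lysine 4 methyltransferase, had 8.10, 8.25 and 8.35 against 8.36, 8.42 and 8.51. The gap between the Kmt2d groups was narrow, and the difference was 0.17 ± 0.07 (adjusted p = 0.451).

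The lists of liver pathways and cell types below were described by counts and medians, beside a median of -0.01 over all genes. Imprinted growth genes and genes of fetal liver formed a list of 14, of which 11 were measured, with a median difference of -0.33. The ATF7+/+ mean was lower for 10 and higher for 1, and 8 had an unadjusted p under 0.05 with a lower mean, against 5.31% of all genes. None passed after adjustment over all genes. The list's mean level, centred per gene over all samples, ran from 0.01 to 0.32 in wild-type and from -0.36 to 0.01 in ATF7+/+ livers, so the groups met at their edge. Both array sets gave a similar list median, -0.35 for A and -0.31 for B, and control-diet sires gave 0.17. Igf2, the imprinted fetal growth factor, had levels of 6.04, 6.64 and 7.02 in wild-type and 5.75, 6.29 and 6.5 in ATF7+/+ offspring, a difference of -0.39 ± 0.14 (adjusted p = 0.398). Under quantile normalization 9 of the 11 had a lower mean, and under median centring 11.

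Cell-cycle genes had lower means in ATF7+/+ livers in all 23 measured of 26 listed, with a median of -0.35. Of the 23, 4 reached an unadjusted p under 0.05, against 5.31% of all genes with a lower mean. Under quantile normalization 22 of 23 were lower. The centred list mean lay between 0.02 and 0.95 in wild-type and between -0.35 and 0.36 in ATF7+/+ livers, so the groups overlapped in part. Mcm6, a subunit of the replicative helicase, had levels of 7.15, 7.51 and 8.12 in wild-type and 6.29, 6.75 and 7.08 in ATF7+/+ offspring, with no overlap and a difference of -0.81 ± 0.24 (adjusted p = 0.310). Kif11, a mitotic kinesin, differed by -0.54 ± 0.24 and Bub1b, a spindle checkpoint kinase, by -0.33 ± 0.14. Mki67, the proliferation marker, was added after its value was seen and had a median of 8.03 in wild-type and 7.58 in ATF7+/+ livers, and its interval reached from -1.12 to 0.12. The list median was -0.19 in set A, -0.46 in set B and 0.30 in control-diet sires.

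Hepatocyte markers had nearly equal means in the 2 groups, and endothelial markers had lower means in ATF7+/+ livers. Albumin (Alb), chosen after its values were seen, was at 13.35 to 13.64 in wild-type and 13.32 to 13.66 in ATF7+/+ livers, and the 10 measured hepatocyte markers had a median difference of 0.00. All 13 endothelial markers had lower means in ATF7+/+ livers, with a median of -0.17. Of the 13, 4 reached an unadjusted p under 0.05, against 5.31% of all genes with a lower mean. The endothelial list mean lay between -0.02 and 0.21 in wild-type and between -0.52 and 0.11 in ATF7+/+ livers. Lyve1, a receptor of sinusoidal endothelium, had levels of 9.01, 9.20 and 9.55 in wild-type and 8.27, 8.86 and 9.0 in ATF7+/+ livers, a difference of -0.44 ± 0.13 (adjusted p = 0.305) with -0.44 in each array set. Flt1, a VEGF receptor, had 7.68, 7.79 and 7.87 against 7.13, 7.54 and 7.65, also without overlap (-0.30 ± 0.14). Pecam1, an adhesion protein of endothelial junctions, differed by -0.26 ± 0.08, and Cdh5, their cadherin, by -0.17 ± 0.08. In bulk tissue, fewer cells of a type and less RNA per cell cannot be told apart.

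The endothelial median was -0.37 in set A, where 6 of 13 fell past the threshold against 9.82% of all genes, and -0.07 in set B. Kupffer cell and macrophage markers had a median of -0.08 over 14 genes, but -0.50 in set A, where 6 fell (9.82% of all genes), and 0.14 in set B. Marco, a macrophage scavenger receptor, differed by -0.42 ± 0.16 over all arrays. Of 13 stellate cell and fibroblast markers 10 had lower means (median -0.11). Reln and Lum, 2 of the 10, reached an unadjusted p under 0.05, against 5.31% of all genes with a lower mean. The 4 measured erythroid markers of 12 listed were all lower in mean, with a median of -0.25. Slc4a1, the red cell anion exchanger, had medians of 7.26 and 6.45 (-0.67 ± 0.32, adjusted p = 0.582). Granulocyte, B cell, T and NK cell, cholangiocyte, exocrine pancreas and adipocyte lists had only 4 or 5 measured members each. Their medians lay between -0.02 and 0.14. What part these cell-type markers have in the growth, cell-cycle or immune differences was not tested.

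**Figure D2:**
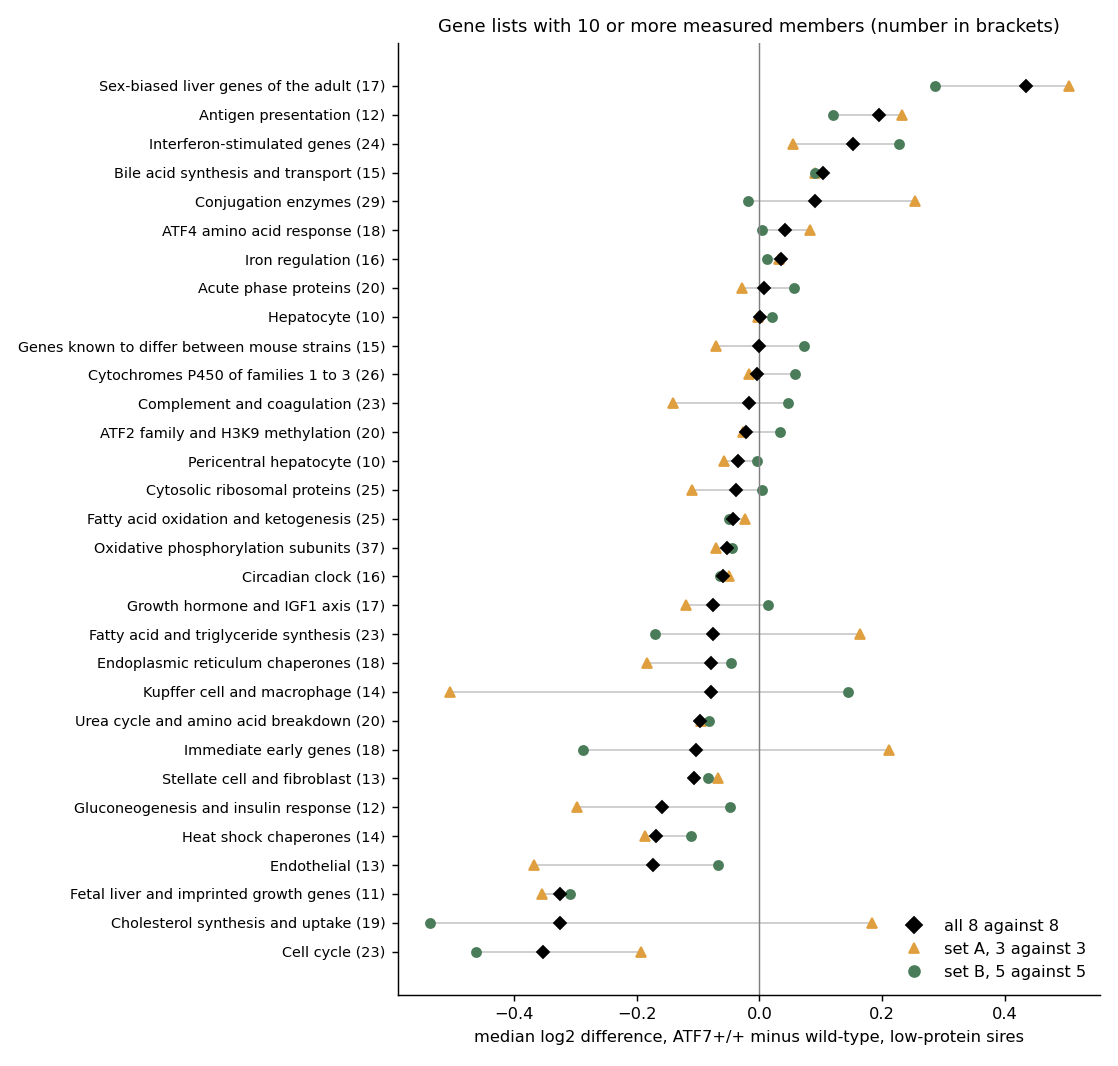
Median log2 difference (ATF7+/+ minus wild-type, low-protein sires) of each gene list with at least 10 measured members; diamonds use all arrays, triangles set A and circles set B. Cell-cycle, fetal growth and endothelial genes lie left of 0 in both sets, and cholesterol, Kupffer cell and immediate early genes lie on opposite sides of 0 in sets A and B.

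Genes of cholesterol synthesis and uptake had a lower mean in ATF7+/+ livers for 18 of 19 measured genes of 24 listed, with a median of -0.33. None passed, and 4 reached an unadjusted p under 0.05, all lower, against 5.31% of all genes. Lss, lanosterol synthase, had levels of 9.38, 9.79 and 10.27 in wild-type and 8.73, 9.19 and 9.61 in ATF7+/+ livers, a difference of -0.61 ± 0.23 (adjusted p = 0.437). Fdft1, squalene synthase, differed by -0.32 ± 0.12 and Mvk, mevalonate kinase, by -0.36 ± 0.15. The centred list mean ran from 0.01 to 0.61 with a median of 0.42 in wild-type and from -0.33 to 0.42 with a median of 0.14 in ATF7+/+ livers. In set B the list averaged -0.08 in ATF7+/+ and 0.49 in wild-type, with 16 of 19 genes at an unadjusted p under 0.05 against 7.78% of all genes. In set A it averaged 0.36 in ATF7+/+ and 0.21 in wild-type, with a median gene difference of 0.18. The set interaction passed for 4 of the 19 genes, against 7.13% of all genes. These 4 include Msmo1, -0.84 in B and 0.54 in A, and Hmgcs1, -0.80 and 0.23. Fatty acid and triglyceride synthesis genes had a median of -0.08, with 14 of 23 lower. At an unadjusted p under 0.05 there were 0, against 8.34% of all genes. The list median joins opposite signs, 0.16 in set A against -0.17 in set B. In set A 2 of the 23 passed, both higher (5% of all genes), and the set interaction passed for 2 (7.13% of all genes). With single livers left out the list median ran from -0.13, without wild-type replicate 7, to -0.01, without ATF7+/+ replicate 6. Fatty acid oxidation and ketogenesis genes had a median of -0.04 over 25 genes.

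Genes of insulin response, amino acid breakdown and protein folding had mostly lower means, and none passed. Irs2, the insulin receptor substrate of the liver, had levels of 7.53, 8.08 and 8.46 in wild-type and 7.32, 7.49 and 7.87 in ATF7+/+ livers (-0.44 ± 0.14, adjusted p = 0.332). Igfbp1, a secreted IGF-binding protein that insulin represses, differed by -0.78 ± 0.29 (adjusted p = 0.417), and Sesn1, a stress-induced inhibitor of mTORC1, by -0.23 ± 0.07 (adjusted p = 0.310). The 12 genes of gluconeogenesis and insulin response had a median of -0.16 and 9 lower means, of which 3 had an unadjusted p under 0.05 against 5.31% of all genes. Their median was -0.30 in set A against -0.05 in set B. Of 20 urea cycle and amino acid genes 16 were lower in mean (median -0.10). Asl, argininosuccinate lyase, differed by -0.43 ± 0.17. Heat shock chaperones were lower in 12 of 14 means (median -0.17), Fkbp4 by -0.36 ± 0.11. The 18 genes of the ATF4 amino acid response had a median of 0.04, and the 18 endoplasmic reticulum chaperones a median of -0.08. Of 16 measured circadian clock genes 7 had higher and 9 lower means, with a median of -0.06. An unadjusted p under 0.05 was reached by 2 of the 9, against 5.31% of all genes with a lower mean. Cry1, a repressor of the circadian clock, had medians of 6.97 and 6.60 (-0.41 ± 0.13, adjusted p = 0.350). Nfil3, a clock output factor, differed by -0.49 ± 0.19. For immediate early genes the median was -0.10 over all arrays, 0.21 in set A alone but -0.29 in set B.

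Most interferon and antigen presentation genes had higher means in ATF7+/+ livers, and none passed. Of 24 measured interferon-stimulated genes 21 had higher means in ATF7+/+ livers, with a median of 0.15. But 0 reached an unadjusted p under 0.05, against 8.34% of all genes. The median was 0.06 in set A (-0.00 after median centring) and 0.23 in set B. Antigen presentation genes had a median of 0.19, with 10 of 12 higher, 3 of them at an unadjusted p under 0.05 against 3.04% of all genes. H2-Aa, a class II chain, had levels of 7.01, 7.37 and 8.15 in wild-type and 7.51, 8.18 and 8.41 in ATF7+/+ livers (0.69 ± 0.27, adjusted p = 0.456). The highest wild-type value of H2-Aa came from replicate 8, and the next was 7.53. H2-Eb1, another class II chain, was 0.39 higher and B2m, the light chain of class I, 0.18 ± 0.07 higher. Of 23 complement and coagulation genes 4 were higher at an unadjusted p under 0.05, against 3.04% of all genes, but the list median was -0.02 (-0.14 in set A, 0.05 in set B). C6, of the membrane attack complex, had levels of 7.45, 7.63 and 7.98 in wild-type and 7.66, 8.05 and 9.31 in ATF7+/+ livers (0.58 ± 0.17, adjusted p = 0.288). For C6 the set interaction passed (adjusted p = 0.0191), with differences of 1.23 in set A against 0.19 in set B. C9 was 0.48 ± 0.16 and C8b 0.44 ± 0.17 higher. The 20 acute phase proteins had a median of 0.01. Orm1 and Orm2 were the 2 at an unadjusted p under 0.05, both higher, against 3.04% of all genes.

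Genes that differ by sex in adult liver varied widely among animals. The mean of Y-linked genes separated the animals by a gap from 4.19 to 7.36, and 6 of 8 ATF7+/+ and 5 of 8 wild-type animals lay above it. Cyp4a12a, a male-biased fatty acid hydroxylase, had levels of 4.36, 5.51 and 8.74 in wild-type and 5.33, 8.91 and 10.68 in ATF7+/+ livers (2.33 ± 0.75, adjusted p = 0.350). Among animals with high Y-linked levels it spanned 5.07 to 8.74 in wild-type and 8.42 to 10.68 in ATF7+/+ livers. Animals with low Y-linked levels had 4.36 to 5.18 and 5.33 to 5.46. With the Y-linked level as a covariate the Cyp4a12a difference was 2.06 (adjusted p = 0.306), and in animals with high Y-linked levels alone 2.59 (adjusted p = 0.536). Slco1a1, a male-biased transporter, spanned 7.61 to 8.97 in wild-type and 9.17 to 11.24 in ATF7+/+ animals with high Y-linked levels. In animals with low Y-linked levels the ranges overlapped, 4.69 to 6.71 and 5.44 to 6.76. The Slco1a1 difference over all animals was 1.72 ± 0.88 (adjusted p = 0.614). It was 1.35 with the Y-linked covariate (adjusted p = 0.587) and 1.72 in animals with high Y-linked levels alone (adjusted p = 0.770). Cyp3a16, a P450 of young and female livers, had levels of 4.73, 6.80 and 9.40 in wild-type and 3.83, 4.35 and 8.55 in ATF7+/+ livers (-1.90 ± 0.66, adjusted p = 0.393). Of 17 measured sex-biased genes 5 were higher and 1 lower at an unadjusted p under 0.05 (median 0.43), against 3.04% and 5.31% of all genes.

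The Cyp4a12a difference was 4.46 in set A against 1.05 in set B, and that of Cyp3a16 -3.62 and -0.86; neither set interaction passed (adjusted p = 0.164 and 0.182). Set A held 3 of 3 ATF7+/+ and 2 of 3 wild-type animals with high Y-linked levels, set B 3 of 5 in each group. Cyp2c38, a P450 of the steroid and fatty acid hydroxylase family, had levels of 5.60, 7.60 and 8.92 in wild-type and 7.84, 8.89 and 10.25 in ATF7+/+ livers (1.47 ± 0.46, adjusted p = 0.332). Cyp2c55 had medians of 7.73 and 6.73 (-0.79 ± 0.28). The 26 measured P450 genes of families 1 to 3 had a median of 0.00. Of 29 conjugation enzymes 19 were higher in mean (median 0.09), among them Ugt2b37 by 0.76 ± 0.28, and Sult1d1, a sulfotransferase, differed by -0.43 ± 0.13. The median of the conjugation enzymes was 0.25 in set A against -0.02 in set B. With single livers left out it ran from 0.02, without wild-type replicate 6, to 0.12, without ATF7+/+ replicate 8.

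Hamp, which encodes the iron hormone hepcidin, varied widely in wild-type livers. Its levels were 4.18, 8.11 and 11.84 in wild-type and 8.64, 11.87 and 12.13 in ATF7+/+ livers, and all 3 wild-type arrays of set A lay between 4.18 and 6.84. The difference was 2.91 ± 1.05 (adjusted p = 0.398) with a 95% interval from 0.79 to 5.04. In control-diet sires the mean difference was -2.72, with medians of 12.68 in wild-type and 12.42 in ATF7+/+ livers. The ATF7+/+ values there ran from 4.45 to 12.67, and the wild-type values from 10.94 to 12.81. Tfrc, the transferrin receptor that imports iron, had levels of 7.26, 8.14 and 8.90 in wild-type and 6.83, 7.17 and 7.69 in ATF7+/+ livers (-0.85 ± 0.29, adjusted p = 0.381). The 16 iron-regulation genes together had a median of 0.04. The 20 measured genes of the ATF2 family and of H3K9 methylation had a median of -0.02. Atf7 was the 1 of them with an unadjusted p under 0.05, against 8.34% of all genes. Setdb1, an H3K9 methyltransferase, was 0.19 ± 0.10 higher. The 37 oxidative phosphorylation subunits (median -0.05) and the 25 ribosomal proteins (median -0.04) held 0 and 1 gene at an unadjusted p under 0.05. Of all genes 8.34% reached it. In set A the ribosomal median was -0.11, against 0.00 in set B. Of the 25 ribosomal genes 6 were lower past the threshold in set A, against 9.82% of all genes. The set interaction passed for 5 of them, against 7.13% of all genes.

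Whether the ATF7+/+ difference depended on the sire's diet was tested by the interaction of label and diet. In control-diet sires 47 genes (0.347%) passed, 39 higher (0.288%) and 8 lower in ATF7+/+ offspring, and 11 of the 19 cholesterol genes were among those higher. With each sample of these 2 groups left out in turn the count ran from 9, without wild-type replicate 8, to 184, without ATF7+/+ replicate 5. With only these 2 groups fitted 1 gene passed, and in set B, as refitted alone, 6 passed against 2645 in set A. Of the 47 genes 22 had the same sign and 24 the opposite sign in low-protein sires, and 0 passed there. Across all genes the differences under the 2 sire diets, which share no sample, correlated with r = 0.15 (n = 13542 genes, which are not independent). The interaction passed for 3 genes (0.0222%), and 956 had an unadjusted p under 0.05. With only the 4 groups compared in the fit 0 passed. The 3 were Rps23rg1, a retrogene copy of a ribosomal protein gene, Msmo1, the C4-methylsterol oxidase of cholesterol synthesis, and Rdh11, a retinal reductase.

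Msmo1 levels were 7.93, 8.96 and 9.77 in wild-type and 9.81, 10.26 and 10.42 in ATF7+/+ livers of control-diet sires, without overlap. With low-protein sires they were 9.99, 10.65 and 10.86 in wild-type and 9.51, 10.13 and 11.06 in ATF7+/+ livers. In set A the ATF7+/+ livers of low-protein sires had 10.82 to 11.06 and the wild-type livers 9.99 to 10.66, and in set B the order was the opposite, 9.51 to 10.23 against 10.57 to 10.86. The label difference was 1.30 with control-diet sires (adjusted p = 0.0043) and -0.33 with low-protein sires, and the interaction was -1.63 (adjusted p = 0.0426). Rdh11 gave 1.20 and -0.23, with an interaction of -1.43 (adjusted p = 0.0426). Its wild-type levels were 6.81 to 8.72 with control-diet and 9.40 to 10.13 with low-protein sires, and its ATF7+/+ levels 8.31 to 9.37 and 8.79 to 9.91. With low-protein sires the Rdh11 medians in set A were 9.70 in wild-type and 9.87 in ATF7+/+ livers. In set B they were 9.67 and 9.27.

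Rps23rg1 levels were 6.37, 6.66 and 7.02 in wild-type and 7.02, 7.39 and 7.78 in ATF7+/+ livers of control-diet sires. With low-protein sires they were 7.37, 7.89 and 8.75 in wild-type and 7.28, 7.49 and 7.84 in ATF7+/+ livers. The difference was 0.75 (adjusted p = 0.0081) and -0.43 ± 0.13, and the interaction -1.18 (adjusted p = 0.0037). Its probes may also bind the parent gene's transcripts, so the source of the signal is uncertain. Rps23rg1 also belongs to a list of 25 genes known to differ between mouse strains, of which 15 were measured. That list had a median difference of -0.00 with low-protein and 0.06 with control-diet sires. What part strain background has in the Rps23rg1 values was not tested. With each of the 30 samples of these 4 groups left out in turn, Rps23rg1 passed in all 30, Msmo1 in 12 and Rdh11 in 10. The number of genes past the threshold then ran from 1 to 26, the highest without ATF7+/+ replicate 5 of control-diet sires. With a replicate block within each label 8 genes passed, and Rdh11 did not (adjusted p = 0.0596). None of the 3 passed in animals with high Y-linked levels alone, where the adjusted p was 0.337 for Rps23rg1 and Rdh11 and 0.397 for Msmo1. The next 5 genes were Hmgcs1 (adjusted p = 0.0501), Dhcr7, Sqle and Fdps, all of cholesterol synthesis, and Pxdn, a matrix peroxidase. Hmgcs1 had levels of 8.88, 9.67 and 10.29 in wild-type and 10.38, 10.74 and 10.93 in ATF7+/+ livers of control-diet sires, and 11.02, 11.31 and 11.57 against 10.28, 10.71 and 11.79 with low-protein sires. Over the 19 cholesterol genes the median interaction was -0.96.

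**Figure D3:**
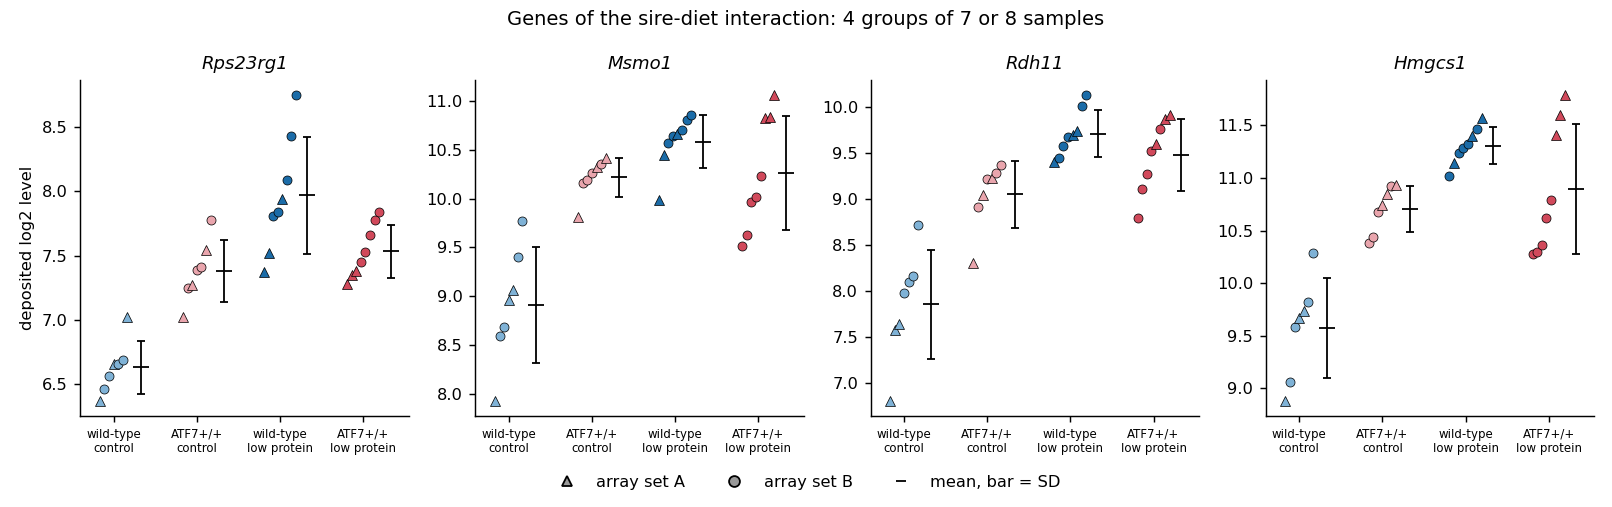
Log2 level of Rps23rg1, Msmo1, Rdh11 and Hmgcs1 in wild-type and ATF7+/+ livers under both sire diets, 1 point per sample with the group mean and SD. In control-diet sires the ATF7+/+ mean lies above the wild-type mean in all 4 panels, and in low-protein sires it lies below. Within set A of low-protein sires the ATF7+/+ median lies above wild-type for Msmo1, Rdh11 and Hmgcs1.

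The 250 bases before the start sites of these 4 genes are printed because their means follow 1 pattern over the 4 groups. Within set A of low-protein sires they part. There the ATF7+/+ median lay above wild-type for Msmo1, Rdh11 and Hmgcs1, and below it for Rps23rg1 (7.35 against 7.52). Sequences are from RefSeq (GRCm38.p6), 5′ to 3′ on the gene's strand. Capitals mark CCAAT or its reverse complement ATTGG, the element bound by NF-Y, and TCACCCCA or TGGGGTGA, the core of a sterol response element bound by SREBP. Both strands were searched, and the motifs do not overlap one another here.
Rps23rg1, chr8:3567748-3567997, plus strand: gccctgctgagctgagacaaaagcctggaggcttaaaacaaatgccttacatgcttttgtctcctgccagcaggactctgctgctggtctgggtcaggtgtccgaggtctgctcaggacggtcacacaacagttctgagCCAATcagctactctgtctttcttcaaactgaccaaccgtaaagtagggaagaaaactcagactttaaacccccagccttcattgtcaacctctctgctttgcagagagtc
Msmo1, chr8:64733579-64733828, minus strand: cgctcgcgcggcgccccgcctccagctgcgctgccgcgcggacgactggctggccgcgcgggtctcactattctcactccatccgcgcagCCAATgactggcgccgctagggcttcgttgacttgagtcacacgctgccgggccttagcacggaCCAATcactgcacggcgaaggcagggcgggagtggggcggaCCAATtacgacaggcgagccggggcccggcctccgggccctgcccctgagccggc
Rdh11 first start, chr12:79191856-79192105, minus strand: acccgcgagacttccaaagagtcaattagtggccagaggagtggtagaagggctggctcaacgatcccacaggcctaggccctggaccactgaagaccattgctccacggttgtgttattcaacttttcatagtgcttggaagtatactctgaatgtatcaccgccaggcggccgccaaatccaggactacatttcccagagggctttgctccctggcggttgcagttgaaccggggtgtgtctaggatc
Rdh11 second start, chr12:79190962-79191211, minus strand: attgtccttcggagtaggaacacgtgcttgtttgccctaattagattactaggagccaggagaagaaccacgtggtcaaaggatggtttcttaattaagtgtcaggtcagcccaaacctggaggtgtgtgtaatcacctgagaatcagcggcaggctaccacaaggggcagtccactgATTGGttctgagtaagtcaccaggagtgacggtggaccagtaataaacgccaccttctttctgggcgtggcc
Hmgcs1, chr13:119690101-119690350, plus strand: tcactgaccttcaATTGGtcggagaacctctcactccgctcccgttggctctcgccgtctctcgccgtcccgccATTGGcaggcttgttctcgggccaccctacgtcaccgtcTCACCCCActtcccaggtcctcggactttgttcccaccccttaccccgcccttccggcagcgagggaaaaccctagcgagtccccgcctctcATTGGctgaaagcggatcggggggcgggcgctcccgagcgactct
CCAAT stood in 33.8% of 32851 windows of this length in the table, and in 6 of 9 windows of the interaction genes. Of the 8 interaction genes 6 were in the table, each with CCAAT before at least 1 start, while Sqle and Fdps were not matched. Msmo1 and Hmgcs1 had 3 copies each. TCACCCCA stood in 1.34% of all windows and, of these genes, in that of Hmgcs1. The cyclic AMP response element TGACGTCA, the full site of ATF proteins, stood in 1.55% of all windows and in 0 of 9 here. These matches describe letters in the windows and not bound sites.

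The comparison gave different results in the 2 array sets. In set A, with 3 livers a group, 2007 genes passed, 677 higher (5%) and 1330 lower (9.82%) in ATF7+/+ offspring. In set B, with 5 livers a group, 0 passed (0%), with a lowest adjusted p of 0.198 and 1053 genes (7.78%) at an unadjusted p under 0.05. The difference between sets passed for 965 genes (7.13%), 299 of them with a higher and 666 with a lower difference in set A. Of the 2007 genes, 1004 had the same sign in set B, and the differences in A and B correlated across genes with r = 0.13. With 1 of the 16 livers left out, the set interaction passed for 379 genes without wild-type replicate 1, for 403 and 477 without ATF7+/+ replicates 2 and 1, and for 648 to 1122 otherwise. The split of the set A calls depended on scaling: 33.7% were higher on the deposited values, 45.1% after quantile normalization and 16.3% after median centring. The set interaction gave 31.0%, 43.8% and 15.2% higher.

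**Figure D4:**
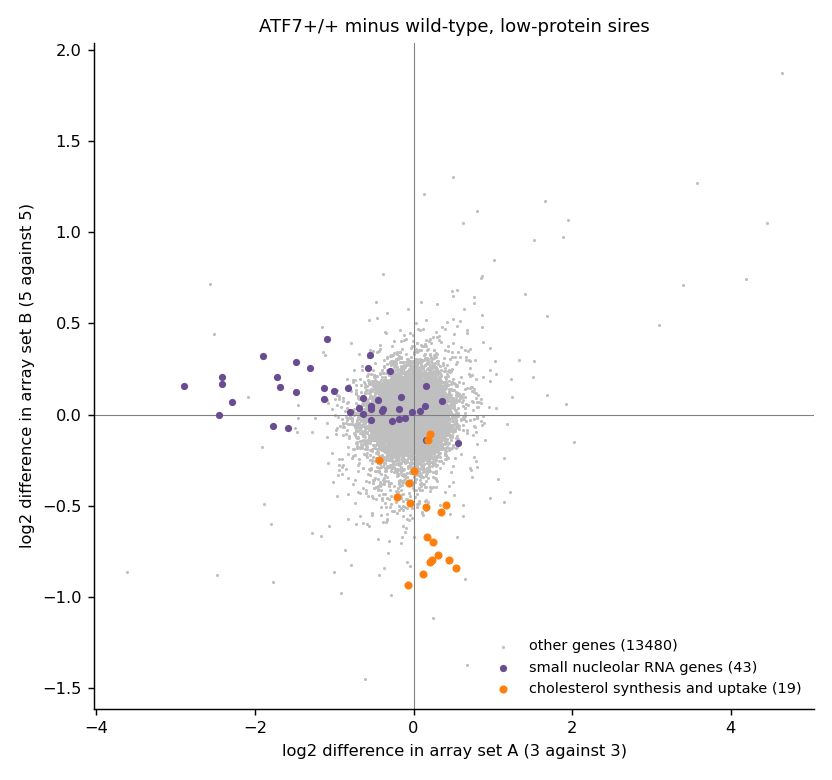
Log2 difference (ATF7+/+ minus wild-type, low-protein sires) of each gene in set A (horizontal) and set B (vertical), with small nucleolar RNA and cholesterol genes coloured. Small nucleolar RNA genes spread to the left along a set B difference near 0, and most cholesterol genes lie below 0 in set B.

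Small nucleolar RNA genes, whose transcripts guide chemical modification of ribosomal RNA, made up 5 of the 8 genes with the smallest p of the set interaction. The family was chosen after its values were seen. Of 43 measured of 51 on the array, 24 fell and 0 rose past the threshold in set A (9.82% and 5% of all genes), with a median of -0.63, while the set B median was 0.07. The set interaction passed for 21 of them, against 7.13% of all genes. Snord73b was -2.89 in set A against 0.16 in set B, Snora31 -2.45 and 0.00, Snora16a -2.41 and 0.17, Snora33 -2.29 and 0.07, and Snora70 -1.48 and 0.12. Averaged over the family, the 3 wild-type livers of set A had 8.25 to 8.49 and the 3 ATF7+/+ livers 7.29 to 7.69. In set B both groups lay together, at 7.49 to 7.69 and 7.59 to 7.73. The ATF7+/+ arrays of set A therefore stood at the level of set B, and the other groups of set A above it. In control-diet sires the set A median was -0.69, with 28 lower past the threshold. Of all 13542 genes, 2755 passed there in either direction.

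**Figure D5:**
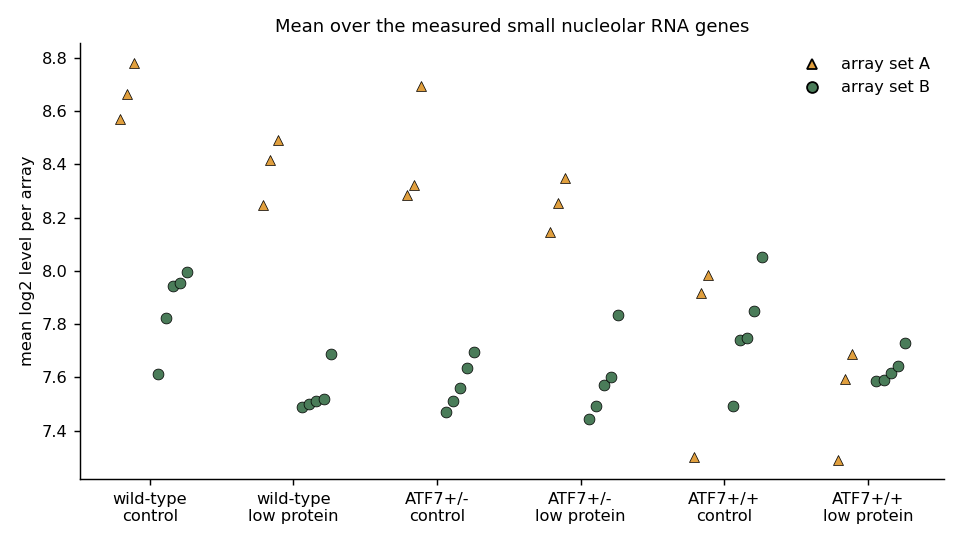
Mean log2 level over 43 small nucleolar RNA genes in each array, by group and array set. In set A the ATF7+/+ arrays of both sire diets lie below the wild-type and ATF7+/- arrays. In set B the ranges of the 6 groups overlap, and the highest arrays are from the wild-type and ATF7+/+ groups of control-diet sires.

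Other genes led by the set interaction were Trappc6b, of a vesicle tethering complex (-0.94 in set A, 0.10 in set B), Pfdn2, a prefoldin subunit (-0.91, 0.04), and Rbm8a, of the exon junction complex (-0.88, -0.07). In control-diet sires 2755 genes passed in set A and 5 in set B. In set A, 720 genes passed in the same direction under both sire diets, which is 35.9% of the low-protein and 26.1% of the control-diet calls, and 32 in opposite directions. Of 5591 probe sets with no listed gene, which defined the sets, 0 passed over all arrays in low-protein sires, 756 in set A and 0 in set B. Whether the sets differ in extraction, hybridisation or normalization is not given in the sources used here, and the part of such a difference in the set A calls was not tested.

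ATF7+/- offspring of low-protein sires give values beside these, against the same wild-type livers, so the comparisons share samples. Over the 20 genes with the smallest p, their differences ran from -0.60 for Prom1 to 0.48 for Mup21, and none had an adjusted p under 0.05. Gpc3 differed by -0.58 in ATF7+/- and -1.24 in ATF7+/+ offspring, Onecut1 by 0.22 and 1.0, Clec14a by -0.09 and -0.54, and Gdf2 by 0.00 and -0.38.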

How the data were processed

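Liver RNA of 48 F1 mice was hybridised to Affymetrix arrays. The authors deposited a log2 value for every probe set. Per the submitters' processing notes these were computed by RMA, run in Expression Console (Affymetrix); the version, and whether all arrays were normalized together, are not given in the sources used here. The table held 35556 probe sets, and its values were used as deposited.

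Of 23410 annotated probe sets 21789 carried 1 gene symbol and 1621 several, and 12146 were not listed; probe sets with several or no symbols were left out of gene tests. Probe sets with 1 symbol and a mean at or above the 40th percentile (5.46) were kept, and the one with the highest mean stood for its gene, which left 13542 genes. In the control-diet groups, wild-type replicates 4 and 5 and ATF7+/+ replicates 7 and 8 were near-identical (spread ratio on variable genes up to 1.30, against 1.94 to 5.02 for other pairs) and counted as 1 sample each, leaving 46 samples.

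All 6 group means were fitted with limma 3.58.1 in R 4.3.3 without covariates. Tests were two-sided, with Benjamini-Hochberg adjustment over 13542 genes and a threshold of 0.05. Differences are ATF7+/+ minus wild-type, with standard errors from the fit. Array-set values came from a fit of 12 means, 6 groups by 2 sets. Genes named are the 20 with the smallest p in low-protein sires, the 8 with the smallest p in each interaction, up to 3 members a list by smallest p, cell-type markers and Atf7; others are said to be chosen after their values were seen, namely Inhbe, Flt1, Car2, Kmt2d, Alb, Mki67 and the small nucleolar RNA family. The members, lists, array sets and near-identical pairs were chosen with earlier results of these data known. The steps were tested on simulated data. Alternatives changed the filter, normalization, variance model, array weights, samples and covariates. Promoter letters came from RefSeq (GRCm38.p6). Python 3.11.15 with matplotlib 3.10.9 drew the figures.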

Additional observations from a re-analysis of the deposited data

Results flagged for a closer look

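Single livers stood far from the rest of their group of 8 in 8 of the 160 gene and group combinations looked at, and chance flags about 1 in 20. In ATF7+/+ offspring of low-protein sires these were replicate 7 for Kyat3 (log2 level 10.97, nearest other 10.79), replicate 2 for Ccdc80 (7.96, nearest 8.33), and replicate 3 for both Lyve1 (8.27, nearest 8.73) and C9 (10.86, nearest 10.2). In wild-type offspring they were replicate 8 for C6 (7.98, nearest 7.67) and for H2-Aa (8.15, nearest 7.53), replicate 1 for Ugt2b35, a glucuronosyltransferase (9.31, nearest 8.91), and replicate 2 for Msmo1 (9.99, nearest 10.45).

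The ATF7+/+ minus wild-type difference depended on the sire's diet, by an interaction term that passed, for Rps23rg1 (-1.18), Msmo1 (-1.63) and Rdh11 (-1.43). Each value is the log2 difference with low-protein sires minus that with control-diet sires.

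The same difference in low-protein sires depended on the array set, by an interaction term that passed, for 15 of the named genes. Values are the log2 difference in set A minus that in set B. They were negative for Snord73b (-3.05), Snora16a (-2.58), Snora31 (-2.45), Snora33 (-2.36), Snora70 (-1.61), Clec14a (-1.19), Trappc6b (-1.04), Pfdn2 (-0.95), Ccdc80 (-0.82), Rbm8a (-0.81), Reln (-0.72) and Gdf2 (-0.53). They were positive for Hmgcs1 (1.03), C6 (1.03) and Msmo1 (1.38).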

How the results depend on the processing

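Gene values were followed for selected genes in low-protein sires and for the 8 with the smallest p in each interaction. None of these gene values changed sign under the alternatives run. Medians of the gene lists in low-protein sires were also followed. Under settings other than single samples left out, 635 medians moved by less than the list mean's SD within groups and 20 moved further. Some medians changed sign, such as that of the cholesterol genes, -0.33 over all arrays and 0.18 in set A. With single samples left out the circadian clock median ran from -0.20 to 0.12. The genes that passed in control-diet sires, and the others that passed the set interaction, were not followed singly. Of the gene values under settings other than single samples left out, 1217 kept their side of the threshold, 112 newly passed and 11 no longer passed. In low-protein sires the count of 0 genes became 1 with array weights (Mllt3), 10 with only the groups compared, 10 with the array-set block, 15 with that block and the Y-linked covariate, and 1740 with set A alone. Leaving out single samples gave 0 to 1 (Gdf2, without wild-type replicate 3). In control-diet sires the count of 47 became 30 with no filter, 30 with median centring, 1 with only the groups compared, 255 with the array-set block, 203 with block and covariate, 2645 in set A, 6 in set B, 75 with all 48 arrays, and 10 among samples with high Y-linked levels. Single samples left out gave 9 to 184. The sire-diet interaction count of 3 became 1 with no filter, 16 with the 60th percentile filter, 8 with quantile normalization, 12 with median centring, 33 with array weights and 0 with only the groups compared. It was 18 with the Y-linked covariate, 51 with the array-set block, 61 with both, 417 in set A, 12 in set B, 14 with all 48 arrays and 0 among samples with high Y-linked levels. Single samples left out gave 1 (for example without ATF7+/+ replicate 4 of low-protein sires) to 26 (without ATF7+/+ replicate 5 of control-diet sires). The array-set interaction count of 965 became 2178 with array weights, and 379 to 1122 with single samples left out. Set-alone counts here come from refitting that set's arrays, and the cause of these shifts was not tested. After seeing the data, the fit of samples with high Y-linked levels was added.

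Samples with the same replicate number in the 2 groups had deviations correlated at -0.51 to 0.60, positive for the pairs that lie in 1 array set and negative for the others; what the number adds beyond the array set was not tested. Across sire diets the ATF7+/+ pairs, each within 1 set, had 0.30 to 0.67, and the wild-type pairs -0.47 to 0.50. The main fits carry no replicate term. With a replicate block the count in low-protein sires stayed 0 (lowest adjusted p 0.120), that in control-diet sires was 44, and that of the interaction 8. A replicate block within each label gave an interaction count of 8; the label difference within a diet could not be fitted there, because label and block cannot be told apart. Precision is limited by 8 arrays a group, and by 3 and 5 within sets. With 1130 genes at an unadjusted p under 0.05 and 0 after adjustment in limma, small differences in single genes cannot be told from the spread.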
